A study of Mus musculus with 9 samples.

Results

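The 9 genes described here encode ligands of the tumour necrosis factor (TNF) superfamily that T cells can express: Tnf, Fasl, Lta, Ltb, Cd40lg, Tnfsf8, Tnfsf10, Tnfsf11 and Tnfsf14. They were picked as named members of that family from the 55471 gene identifiers counted in each library. All 9 passed the filter on low counts and were tested.

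The counts come from RNA of mouse CD8+ T cells of the OT-I strain, whose T cell receptor transgene recognises a peptide of ovalbumin. The control group (Bdh1-WT;shCtrl, n = 4) was wild type for Bdh1 and carried a hairpin (shRNA) directed at firefly luciferase, while the DKO group (Bdh1-KO;shOxct1, n = 5) was labelled as a Bdh1 knockout with an shRNA against Oxct1. Bdh1 and Oxct1 encode enzymes that T cells use to burn ketone bodies, and the comparison asks what their intended loss does to effector cells. In both groups the cells were activated in culture with antibodies to CD3 epsilon and CD28 plus IL2, transduced, sorted on the Ametrine reporter and moved into C57BL/6 (CD45.1) mice. The recipients received LmOVA, an ovalbumin-carrying Listeria monocytogenes, and donor cells were sorted on day 7 by CD45.2 and Ametrine. Every cell studied had therefore been through culture and retained a hairpin construct. The labels give no animal ages and do not say whether replicates of a group came from separate donors or recipients, so p-values measure only the spread between these samples.

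Ligands of this superfamily are mostly made as membrane proteins that assemble as trimers, and some are cut from the surface by proteases. Some receptors, such as Fas, carry a death domain and can trigger apoptosis, and others recruit TRAF adaptors and activate NF-kappaB. Effector CD8+ T cells are known to use Fas ligand and TNF against target cells, and lymphotoxins are known for organising lymphoid tissue.

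Each library held 45205993 to 59853080 counts in genes. Control replicate 1 stood apart, with 16.7% of its reads unmapped against 10.3 to 12.3% elsewhere and a first principal component of -79.1 against -7.25 to 23.5. Control replicate 3 stood apart on the second component, at -70.2 against -5.59 to 20.2. The log2 fold changes of Tnf and Fasl were 1.21 and 0.32 without control replicate 1, and 1.13 and 0.29 without control replicate 3 (edgeR adjusted p 0.00934, 0.0127, 0.0201 and 0.0847). In CPM, counts scaled to the normalised library total, Oxct1 averaged 63.2 ± 5.73 in control against 5.16 ± 0.370 in DKO, and Bdh1 30.5 ± 4.17 against 10.6 ± 1.24 (SD, n = 4 and 5). Both targeted genes were thus lower in every DKO library. Bdh1 kept 0.349 of its control level, and reads within a deleted stretch were not analysed here, so the whole-gene count shows a decrease and does not check the knockout itself. Xist, which is transcribed from the inactive X chromosome, ranged from 0 to 0.351 CPM over the control libraries and from 11.4 to 23.6 over the DKO libraries, while the 4 Y-linked genes Ddx3y, Eif2s3y, Kdm5d and Uty had 0 to 1 counts in every library of both groups. The strand columns of Xist summed to 8.51 times the count used, so its level is uncertain. Whatever separates the groups in Xist cannot be told apart from the genotype and hairpin in any comparison here, those of Tnf and Fasl included. The CD8 T cell list of 7 genes summed to 6202 to 8366 CPM in control against 5694 to 6120 in DKO. These sums did not overlap. Of the 7 genes, 6 were lower in DKO and 1, Cd5, higher, with a median log2 fold change of -0.22. An unadjusted p under 0.05 was found for 5 of them, Cd5 included, against 16.0% of all genes. Only Cd8b1 was called, with means of 2247 in control and 1702 CPM in DKO (edgeR adjusted p 0.0428), while Cd8a was at 719.3 and 715.6 CPM. Of 5 marker lists for other cells, 1 was fully separated between the groups (exact permutation tests, two-sided). That list was the myeloid one, with 163.5 to 201.1 CPM in control against 116.4 to 130.1 in DKO (exact permutation p 0.0159, adjusted 0.0794). Within it, edgeR called Cd68 and Ctss lower. Of its 11 tested genes, however, 6 were higher and 5 lower in DKO, with a median log2 fold change of 0.11. The B cell list held 179.6 to 264.7 and 188.0 to 210.0 CPM (exact permutation p 0.349). Most of that sum was Ighm, at means of 208.8 and 188.3 CPM, with Cd79b at 5.08 and 6.03 and Pax5 at 0 in every library. The NK list held 64.6 to 90.8 and 53.3 to 79.0 CPM (exact permutation p 0.175). Of its 5 genes, 3 averaged over 1 CPM, while Ncr1 was at means of 0.0707 and 0.0618. The erythroid and platelet list held 10.8 to 37.4 and 16.1 to 53.9 CPM (exact permutation p 0.603). The smallest p possible with 4 against 5 libraries is 0.0159. Given the p-values of the other lists, the separated list could not have an adjusted p under 0.0794.

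The promoters of Tnf, its neighbours Lta and Ltb, and Fasl are shown first, because Tnf and Fasl passed the test of change and Lta and Ltb lie within 10.9 kb of each other around Tnf. Tnf (ENSMUSG00000024401.14) lies on the minus strand of chromosome 17 at 35199381 to 35202007 in GRCm38. Lta (ENSMUSG00000024402.5) is on the same strand at 35203165 to 35205351, with its start 3.34 kb from that of Tnf. Ltb (ENSMUSG00000024399.5) is on the plus strand at 35194439 to 35196320, with its start 7.57 kb from that of Tnf. Fasl (ENSMUSG00000000817.10) lies on the minus strand of chromosome 1 at 161780689 to 161788495. Each window below runs 5′ to 3′ from 250 bases before to 50 bases after the RefSeq transcription start (GRCm38.p6). The windows are chr17:35201958-35202257 (Tnf, minus), chr17:35205302-35205601 (Lta, minus), chr17:35194257-35194556 (Ltb, plus) and chr1:161788446-161788745 (Fasl, minus). Capitals mark a match to 1 of the 6 motifs searched.
Tnf: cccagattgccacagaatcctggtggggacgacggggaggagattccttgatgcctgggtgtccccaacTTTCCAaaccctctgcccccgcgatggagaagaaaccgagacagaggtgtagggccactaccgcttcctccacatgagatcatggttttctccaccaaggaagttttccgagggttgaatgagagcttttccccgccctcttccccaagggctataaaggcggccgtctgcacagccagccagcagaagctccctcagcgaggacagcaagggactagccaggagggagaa
Lta: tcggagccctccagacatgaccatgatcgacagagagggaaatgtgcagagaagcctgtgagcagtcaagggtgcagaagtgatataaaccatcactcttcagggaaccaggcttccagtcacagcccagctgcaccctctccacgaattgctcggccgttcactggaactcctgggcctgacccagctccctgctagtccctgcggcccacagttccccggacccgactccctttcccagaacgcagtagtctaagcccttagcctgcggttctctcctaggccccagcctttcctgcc
Ltb: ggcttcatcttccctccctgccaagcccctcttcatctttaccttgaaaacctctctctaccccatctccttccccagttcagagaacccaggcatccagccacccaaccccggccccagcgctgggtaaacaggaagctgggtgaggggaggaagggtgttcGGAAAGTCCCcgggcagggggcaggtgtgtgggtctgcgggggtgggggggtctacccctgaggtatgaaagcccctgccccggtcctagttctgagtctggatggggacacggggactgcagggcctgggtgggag
Fasl: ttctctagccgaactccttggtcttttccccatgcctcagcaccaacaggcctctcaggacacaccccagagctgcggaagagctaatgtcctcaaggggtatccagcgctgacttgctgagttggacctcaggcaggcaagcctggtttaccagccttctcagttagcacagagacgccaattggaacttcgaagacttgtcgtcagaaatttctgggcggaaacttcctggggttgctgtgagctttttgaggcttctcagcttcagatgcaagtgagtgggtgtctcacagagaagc

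Both strands were searched for NF-kappaB (by name), NFAT (TGGAAA), AP-1 (TGANTCA, which reads the same on both strands), ETS (CCGGAA), the interferon-stimulated response element (ISRE, GAAA followed by any 2 bases and GAAA) and EGR (GCGNGGGCG). A window was found for 8 of the 9 members, all but Cd40lg. In the Tnf window the only match was NFAT, on the opposite strand at -181 to -176 from the start. The Ltb window held an NF-kappaB match at -87 to -78, also on the opposite strand. The windows of Lta and Fasl held no match to the 6 motifs. Among the other members, Tnfsf14 had an AP-1 match at -160 to -154 and an NFAT match at -146 to -141, and Tnfsf10 an NFAT match at -134 to -129. NFAT thus matched in 3 of 8 member promoters and 21.4% of 32851 promoters, NF-kappaB in 1 of 8 and 4.51%, and AP-1 in 1 of 8 and 7.81%. ETS, ISRE and EGR matched in 0 of 8, against 14.9%, 3.44% and 5.55% of all promoters. These matches describe letters in a short window and no binding was measured.

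Of the 9 ligand genes, Tnf and Fasl rose in DKO and none fell, by the quasi-likelihood test of edgeR, at a Benjamini-Hochberg adjusted p under 0.05 across the 14918 genes tested. Of those 14918 genes, 2.83% passed in either direction, 1.32% with higher levels in DKO and 1.51% with lower. Another 3 members, Cd40lg, Tnfsf11 and Tnfsf14, had an unadjusted p under 0.05 without passing adjustment, so that 5 of 9 had such a p, against 16.0% of all genes. For Tnf, Fasl and Tnfsf11 every DKO library exceeded every control library in CPM. Such separation held for 8.71% of all genes, 4.62% with DKO higher and 4.09% with DKO lower. The median log2 fold change was 0.33 over the 9 members and -0.01 over all tested genes. The members were chosen with earlier results of these data known, so these shares describe the 9 genes and not the whole family. Of the other 9 ligand genes of the family, the 3 tested were all lower in DKO, with a median log2 fold change of -0.78, and none passed. That median is the value of Tnfsf4, at means of 1.28 and 0.747 CPM, while Tnfsf9 was at -0.09 and Tnfsf13b at -1.36.

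**Figure D1:**
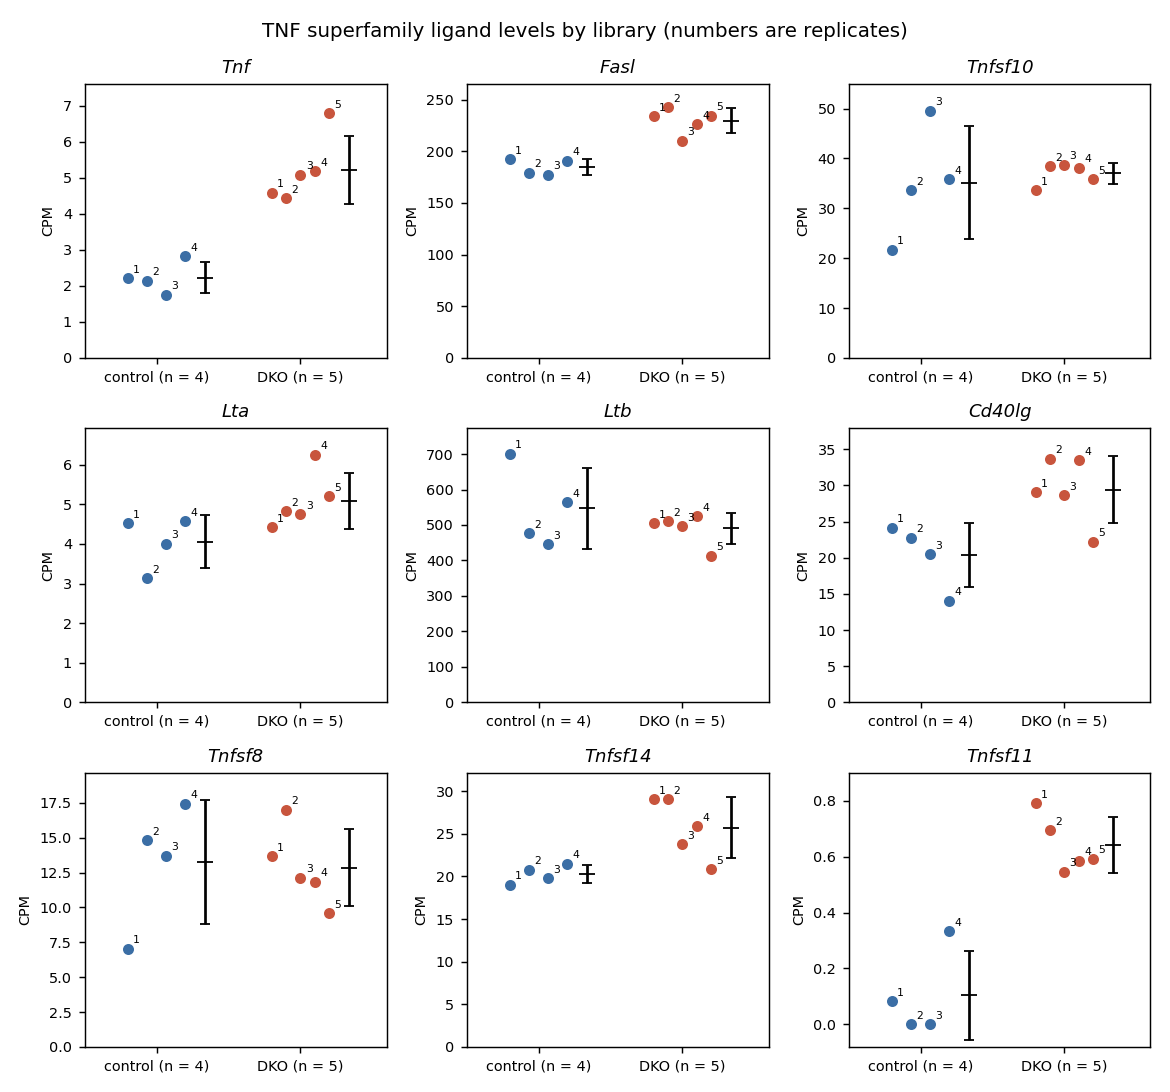
CPM (vertical axis, linear) of each ligand gene in the 4 control (blue) and 5 DKO (red) libraries. Each point is a library with its replicate number, and black marks are the mean ± SD. For Tnf the DKO libraries sit between 4.44 and 6.79 CPM, all above the control libraries.

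Tnf encodes the inflammatory cytokine for which the family is named. It was at 2.21, 2.14, 1.75 and 2.81 CPM in control replicates 1 to 4, and at 4.59, 4.44, 5.09, 5.18 and 6.79 CPM in DKO replicates 1 to 5. Every DKO library was above every control library, and DKO replicate 5 was the highest. The means were 2.23 ± 0.441 CPM (SD, n = 4) and 5.22 ± 0.936 CPM (SD, n = 5). The fitted change was 2.34-fold (95% interval 1.74 to 3.13), a log2 fold change of 1.22 (SE 0.19, edgeR adjusted p 0.00759). These values rest on 79 to 160 counts per control library and 232 to 321 per DKO library. In bulk RNA, a larger share of cells with Tnf RNA and more Tnf RNA per cell cannot be told apart. Tnf is also a myeloid product. The summed myeloid list was lower in DKO, as given above, while 6 of its 11 tested genes were higher and 5 lower. The 2 that edgeR called, Cd68 and Ctss, were lower, with Cd68 at 29.2 CPM in control against 16.8 in DKO (edgeR adjusted p 0.0138). C1qa, C1qb and C1qc were at 1.13, 1.85 and 1.53 CPM in control against 1.21, 2.35 and 1.91 in DKO. Lyz2 was at 2.43 and 5.85 CPM (edgeR adjusted p 0.206), and the part of myeloid RNA in the Tnf result was not tested.

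Fasl encodes Fas ligand, a membrane protein that triggers apoptosis through the receptor Fas. It was at 192.4, 179.2, 177.4 and 190.7 CPM in control and at 234.2, 242.6, 210.3, 226.3 and 234.4 CPM in DKO. The lowest DKO library, replicate 3, was still above the highest control library. The means were 184.9 ± 7.72 CPM (SD, n = 4) and 229.6 ± 12.2 CPM (SD, n = 5), and Fasl rose 1.24-fold (95% interval 1.11 to 1.38, edgeR adjusted p 0.0406). The call was lost on leaving out any single library except control replicate 1 (adjusted p 0.0648 to 0.123 where lost), although the log2 fold change stayed between 0.29 and 0.34. The libraries of a group differed least for this gene, with a within-group SD of 0.07 in log2 CPM, against 0.26 for Tnf.

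Tnfsf10 encodes TRAIL, another ligand whose receptors can carry a death domain. It lies on the plus strand of chromosome 3 at 27317028 to 27342427. It was at 21.7, 33.6, 49.5 and 35.8 CPM in control, and at 33.7, 38.5, 38.7, 38.2 and 35.9 CPM in DKO. The control libraries spanned the whole DKO range, with control replicate 1 the lowest and control replicate 3 the highest of all. The log2 fold change was 0.07 (95% interval -0.33 to 0.47, edgeR adjusted p 0.883), and it was -0.11 without control replicate 1.

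The 2 lymphotoxin genes beside Tnf did not pass the test. Lta encodes lymphotoxin alpha, which is secreted as a homotrimer or joins lymphotoxin beta at the membrane. It was at 4.52, 3.14, 4.004 and 4.57 CPM in control and at 4.43, 4.83, 4.75, 6.26 and 5.21 CPM in DKO. The groups overlapped through DKO replicate 1, and the fold was 1.26 (95% interval 0.975 to 1.62, edgeR adjusted p 0.372). Ltb encodes lymphotoxin beta, the membrane anchor of that complex. It was at 701.4, 477.4, 445.2 and 563.4 CPM in control and at 505.1, 509.9, 496.7, 525.1 and 413.9 CPM in DKO. Control replicate 1 was the highest library and DKO replicate 5 the lowest, with the others interleaved. The fold was 0.896 (95% interval 0.738 to 1.09, edgeR adjusted p 0.596).

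To compare the change of Tnf with that of the other members, the log2 ratio of their CPM was taken in each library, a comparison added after the values were seen. Tnfsf11 was left out because 2 control libraries had 0 counts of it, and its fitted log2 fold change, 2.56, was above that of Tnf. Over the other 7 pairs, with p-values adjusted over them, 6 ratios had an adjusted p under 0.05 and 5 did not overlap. All 7 ratios share Tnf, whose groups were already known not to overlap, so they are not independent tests. A ratio to a gene of little change would largely repeat the Tnf result, and these p-values give it no separate support. Tnf over Lta was at -0.87 ± 0.30 in control and 0.03 ± 0.25 in DKO (SD, n = 4 and 5, exact permutation p 0.0159, adjusted 0.0222). Tnf over Ltb moved by 1.37 and Tnf over Fasl by 0.92 on the log2 scale (exact permutation p 0.0159 and adjusted p 0.0222 for each). Tnf over Tnfsf10 and over Tnfsf14 moved by 1.10 and 0.90 with the same p-values, and over Tnfsf8 by 1.23 (exact permutation p 0.0317, adjusted 0.0370). Tnf over Cd40lg moved by 0.69 and its groups overlapped (exact permutation p 0.0794, adjusted 0.0794). Leaving out any 1 library left the Tnf over Lta difference between 0.79 and 1.00, and the Tnf over Fasl difference between 0.83 and 1.03.

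**Figure D2:**
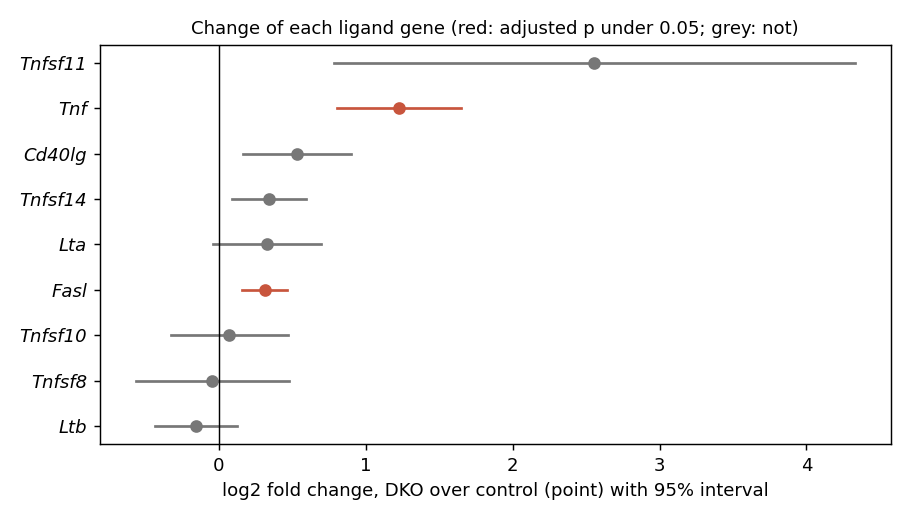
Log2 fold change of each ligand gene, DKO over control (horizontal axis, point), with its 95% interval (line). Tnf at 1.22 and Fasl at 0.31 are red for an adjusted p under 0.05, and the widest interval, 0.78 to 4.33, is that of Tnfsf11.

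Among the ligands known for costimulation, Cd40lg encodes CD40 ligand, best known as a helper T cell signal to B cells and dendritic cells. It lies on the plus strand of chromosome X at 57212143 to 57224042. It was at 24.2, 22.8, 20.5 and 14.1 CPM in control and at 29.1, 33.7, 28.6, 33.5 and 22.2 CPM in DKO. Only DKO replicate 5 fell within the control range. The fold was 1.45 (95% interval 1.12 to 1.87, edgeR adjusted p 0.135), and the DESeq2 Wald test gave an adjusted p of 0.0362. Cd4, the defining marker of helper T cells, averaged 0.172 CPM in control against 0.344 in DKO, and the CD4 T cell list summed to 14.0 to 19.8 and 12.8 to 14.2 CPM, mostly Zbtb7b at 14.6 and 11.8 CPM. Cd40lg is X-linked, and the groups were fully separated in Xist, as given above.

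Tnfsf14 encodes LIGHT, a ligand of the receptors HVEM and lymphotoxin beta receptor. It lies on the minus strand of chromosome 17 at 57189492 to 57194177, far from the Tnf group. It was at 19.0, 20.8, 19.8 and 21.5 CPM in control and at 29.1, 29.1, 23.8, 25.9 and 20.8 CPM in DKO. The first 4 DKO libraries were above all control libraries, and DKO replicate 5 was not. The fold was 1.27 (95% interval 1.07 to 1.51, edgeR adjusted p 0.155). Tnfsf8, on the minus strand of chromosome 4 at 63831308 to 63861347, encodes CD30 ligand. It was at 7.04, 14.8, 13.7 and 17.4 CPM in control and at 13.7, 17.0, 12.1, 11.8 and 9.59 CPM in DKO. The groups overlapped widely, with control replicate 1 the lowest, and the log2 fold change of -0.04 had a 95% interval of -0.57 to 0.48 (edgeR adjusted p 0.952).

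Tnfsf11 encodes RANK ligand, known for driving osteoclast formation, and lies on the minus strand of chromosome 14 at 78277445 to 78308043. It was near the limit of detection, with 4, 0, 0 and 19 counts in the control libraries and 40, 41, 26, 30 and 28 in the DKO libraries. All DKO libraries, at 0.546 to 0.791 CPM, were above all control libraries, at 0 to 0.334 CPM, and 1 control library, replicate 4, held most of the control counts. The fitted log2 fold change was 2.56 (SE 0.81, 95% interval 0.78 to 4.33) and did not pass the test (edgeR adjusted p 0.133). Without control replicate 4 it was 4.46 with an adjusted p of 0.0316, and limma-voom gave 4.72 with an adjusted p of 0.00595. These were the only 2 of 15 alternatives that called Tnfsf11. Over the 15, the log2 fold change ran from 2.14 to 4.72, and the edgeR adjusted p reached 0.257 without DKO replicate 1. The DESeq2 Wald test gave it no adjusted p. The size of the change depends on how counts of 0 are treated, and a count of 0 in a library allows up to 3 counts.

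Levels were set side by side as CPM per kilobase of merged exons, the scale on which genes can be compared. In control the order was Ltb (360.7 ± 75.5), Fasl (95.5 ± 3.99), Cd40lg (16.3 ± 3.58), Tnfsf14 (10.97 ± 0.587), Tnfsf10 (6.68 ± 2.17), Tnfsf8 (3.48 ± 1.16), Lta (2.93 ± 0.481), Tnf (1.36 ± 0.269) and Tnfsf11 (0.0466 ± 0.0707; SD, n = 4). The ranges over libraries overlapped between Cd40lg and Tnfsf14, Tnfsf10 and Tnfsf8, and Tnfsf8 and Lta, so these neighbours were not separated. In DKO the first 5 kept this order with no overlap between neighbours. Lta (3.68 ± 0.510), Tnfsf8 (3.38 ± 0.722) and Tnf (3.18 ± 0.571) followed, with overlapping ranges from Lta to Tnfsf8 and from Tnfsf8 to Tnf (SD, n = 5). Tnf was below every library of Lta and Tnfsf8 in control, and in DKO it lay among them. The 9 genes summed to 498.0 ± 77.4 CPM per kilobase in control and 496.9 ± 34.2 in DKO. Ltb made up 72.0 ± 3.72% of that sum in control and 65.0 ± 1.96% in DKO, Fasl 19.4 ± 2.12% and 23.9 ± 2.12%, and Tnf 0.275 ± 0.0496% and 0.650 ± 0.169%.

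Members deviated in different libraries. Control replicate 1 had the highest Ltb and the lowest Tnfsf8 and Tnfsf10 of the control group, and control replicate 4 the lowest Cd40lg and the highest Tnf and Tnfsf11. DKO replicate 5 had the highest Tnf of all libraries and the lowest Ltb, Cd40lg, Tnfsf8 and Tnfsf14 of its group. Pooled within groups, the SD of log2 CPM was 0.16 for Tnfsf14, 0.22 for Lta and Ltb, 0.29 for Cd40lg, 0.33 for Tnfsf10, 0.44 for Tnfsf8 and 1.03 for Tnfsf11.

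The genes around Tnf were examined because Lta, Tnf and Ltb lie side by side in the class III region of the major histocompatibility complex. Within 100 kb of a member's start, 18 other protein-coding genes were tested over all members. None passed the edgeR test, against 2.83% of all genes. Of these 18, 2 had an unadjusted p under 0.05, against 16.0% of all genes, and DESeq2 and limma-voom called 0. In direction, 12 were higher and 6 lower, with log2 fold changes from -0.53 to 0.53. The 12 around Tnf, other than Lta and Ltb, ran from Lst1 at -0.53 (SE 0.37) to D17H6S53E at 0.48 (SE 0.22). Prrc2a was at 37.1 and 45.6 CPM (log2 fold change 0.30, edgeR adjusted p 0.279), and Nfkbil1 at 6.85 and 8.05 CPM (0.23, adjusted p 0.660). H2-D1, a classical class I gene, was at 8067 and 7472 CPM (-0.11, edgeR adjusted p 0.567), and Ddx39b, an RNA helicase gene, at 150.8 and 156.8 CPM (0.06, adjusted p 0.734). The 1 tested neighbour of Fasl was Suco, at 66.2 and 75.8 CPM (0.19, edgeR adjusted p 0.623). The 5 neighbours of Tnfsf14 included another ligand gene, Tnfsf9, at 9.83 and 9.21 CPM (-0.09, edgeR adjusted p 0.782), where the strand columns summed to 1.64 times the count used, so that its value is uncertain.

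**Figure D3:**
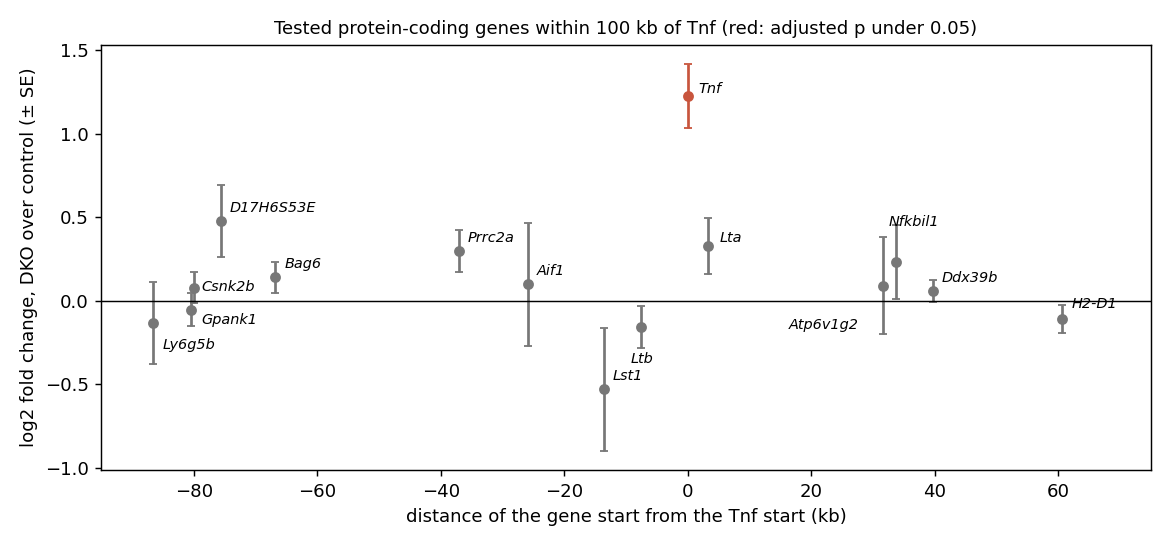
Log2 fold change, DKO over control, ± SE (vertical axis) of the 15 tested protein-coding genes within 100 kb of the Tnf start, by distance of their starts in kb (horizontal axis). Tnf at 1.22 is the red point and the only one with an adjusted p under 0.05, while Ltb and Lta on its sides are at -0.16 and 0.33.

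By root-mean-square difference of centred log2 CPM over the 9 libraries, among 10184 protein-coding genes with a mean of at least 1 CPM, the profile of Tnf was nearest to that of Cdh24 (0.16), a cadherin gene. Cenpn and Dusp6 (0.20 each) and Cdc20 (0.21) were also among its nearest 5, along with a gene that has only a clone name. Cenpn is a centromere gene, Cdc20 a mitotic one and Dusp6 a phosphatase gene of ERK feedback. Both Dusp6 (means of 6.14 and 14.2 CPM) and Cdc20 (14.5 and 33.5 CPM) rose in DKO (edgeR adjusted p 0.00180 and 0.0104). The nearest to Fasl were Hmgcs1 (0.06) and Sin3b, Dolpp1, Pole3 and Nup85 (0.07 to 0.08). These distances include the difference between the groups, and the genes were picked as the nearest of many.

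Of the 10 receptor genes for these ligands, 6 were tested and none passed the edgeR test, while DESeq2 and limma-voom each called 1. Against 16.0% of all genes, 1 of the 6 had an unadjusted p under 0.05. Tnfrsf1a, the TNF receptor with a death domain, was at 28.3, 40.8, 37.3 and 39.2 CPM in control and from 45.9 to 52.2 across DKO. The groups did not overlap, control replicate 1 was the lowest, and the log2 fold change was 0.42 (SE 0.11, edgeR adjusted p 0.0730). Such separation held for 1 of the 6 tested receptor genes, against 8.71% of all genes. Tnfrsf1b, the TNF receptor that lacks a death domain, was at 258.3 ± 65.6 and 286.7 ± 11.7 CPM (edgeR adjusted p 0.678). Fas was at 37.0 ± 5.31 and 33.3 ± 3.59 CPM (0.573), Tnfrsf8 at 8.61 ± 1.86 and 9.74 ± 2.20 CPM (0.721), Tnfrsf14, which encodes HVEM, at 2.41 ± 0.335 and 2.39 ± 0.186 CPM (0.977), and Tnfrsf10b, a TRAIL receptor gene, at 0.371 ± 0.276 and 0.476 ± 0.235 CPM (0.772, edgeR adjusted p). The receptors of lymphotoxin beta, CD40 ligand and RANK ligand were too low to test. Ltbr had 0 to 8 counts per library, Tnfrsf11a 0 to 6, Tnfrsf11b 0 in all 9, and Cd40 0 in every control library and 0 to 4 in DKO.

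Of the other 9 ligand genes of the family, 3 were tested and 0 passed in edgeR or limma-voom, while DESeq2 called 1. Against 16.0% of all genes, 1 of the 3 had an unadjusted p under 0.05. Tnfsf13b, which encodes the B cell survival factor BAFF, was at 1.70 and 0.659 CPM (log2 fold change -1.36, SE 0.37, edgeR adjusted p 0.0799), and Tnfsf4, which encodes OX40 ligand, at 1.28 and 0.747 CPM (-0.78, SE 0.44, adjusted p 0.416). Of 18 other receptor genes of the family, 14 were tested, and edgeR and DESeq2 called 0 and limma-voom 1. Against 16.0% of all genes, 2 of the 14 had an unadjusted p under 0.05. Those were Cd27, at 267.6 and 313.4 CPM (edgeR adjusted p 0.186), and Tnfrsf18, which encodes GITR, at 37.4 and 27.3 CPM (0.163, with strand columns summing to 2.09 times the count used).

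Of 30 genes that act next to the receptors, 1 passed, against 2.83% of all genes. Traf1, an adaptor gene that NF-kappaB induces, fell, with means of 266.1 ± 23.3 CPM in control against 205.1 ± 18.1 in DKO (SD, n = 4 and 5) and a log2 fold change of -0.38 (SE 0.09, edgeR adjusted p 0.0478). The CPM of its groups did not overlap, and 1 of 9 fits without a library kept the call, that without control replicate 1 (adjusted p 0.0174 to 0.133 over the 9). With no filter on low counts its adjusted p was 0.0768. Traf5 was at 43.3 and 54.5 CPM (edgeR adjusted p 0.0719). Tnfaip3, which encodes the NF-kappaB inhibitor A20, was at 121.5 and 154.3 CPM (edgeR adjusted p 0.322). Both were without overlap in CPM and were chosen after their values were seen. For Tnfaip3 the highest control library was at 146.3 CPM and the lowest DKO library at 146.6. In this list 3 of 30 genes did not overlap, against 8.71% of all genes. Of the 30 genes, 20 were higher and 10 lower, with a median log2 fold change of 0.05.

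Of 18 NF-kappaB target and feedback genes, 2 passed, in opposite directions, which is 11.1% against 2.83% of all genes. Bcl3, an atypical member of the NF-kappaB inhibitor family, rose, averaging 26.4 ± 5.55 CPM in control against 42.7 ± 7.82 in DKO, a log2 fold change of 0.70 (SE 0.17, edgeR adjusted p 0.0497). Sod2, the mitochondrial superoxide dismutase, fell, with 56.6 to 62.5 CPM in the control libraries against 42.3 to 47.3 in DKO, a log2 fold change of -0.39 (SE 0.07, edgeR adjusted p 0.0214). The call was kept in 1 of 9 fits without a library for Bcl3 (that without control replicate 4, adjusted p 0.0484, against up to 0.124) and in 5 of 9 for Sod2 (lost without control replicate 4 or DKO replicates 1, 3 or 5, at up to 0.0740). Bcl3 was also not called with DESeq2 size factors or with the strand columns summed (adjusted p 0.0526 and 0.0558). In CPM, 3 of the 18 genes did not overlap, against 8.71% of all genes. The list had 8 genes higher and 10 lower, with a median log2 fold change of -0.14.

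Of the 8 genes that handle shedding of these ligands, 6 were tested and 0 passed in edgeR, DESeq2 or limma-voom. Against 16.0% of all genes, 1 of the 6 had an unadjusted p under 0.05. That was Rhbdf2, which encodes a partner of the TNF-cleaving protease, at 99.5 and 130.3 CPM (edgeR adjusted p 0.249), and the next was Frmd8, at 401 and 441 CPM (adjusted p 0.530). The smallest Rhbdf2 value was in control replicate 1 (63.97 CPM), and Adam17, the protease itself, was at 223.7 and 239.5 CPM (adjusted p 0.732, chosen after its value was seen). Of 13 genes that bind or control Tnf mRNA, 0 passed in edgeR and limma-voom and DESeq2 called 1. Against 16.0% of all genes, 2 of the 13 had an unadjusted p under 0.05. Those were Elavl1 and Zfp36. Elavl1, which encodes the stabilising protein HuR, was at 259.8 and 303.8 CPM (edgeR adjusted p 0.125). Zfp36, which encodes the decay factor tristetraprolin, was at 163.5 and 199.2 CPM (edgeR adjusted p 0.147). These 2 of the 13 genes did not overlap in CPM, against 8.71% of all genes.

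**Figure D4:**
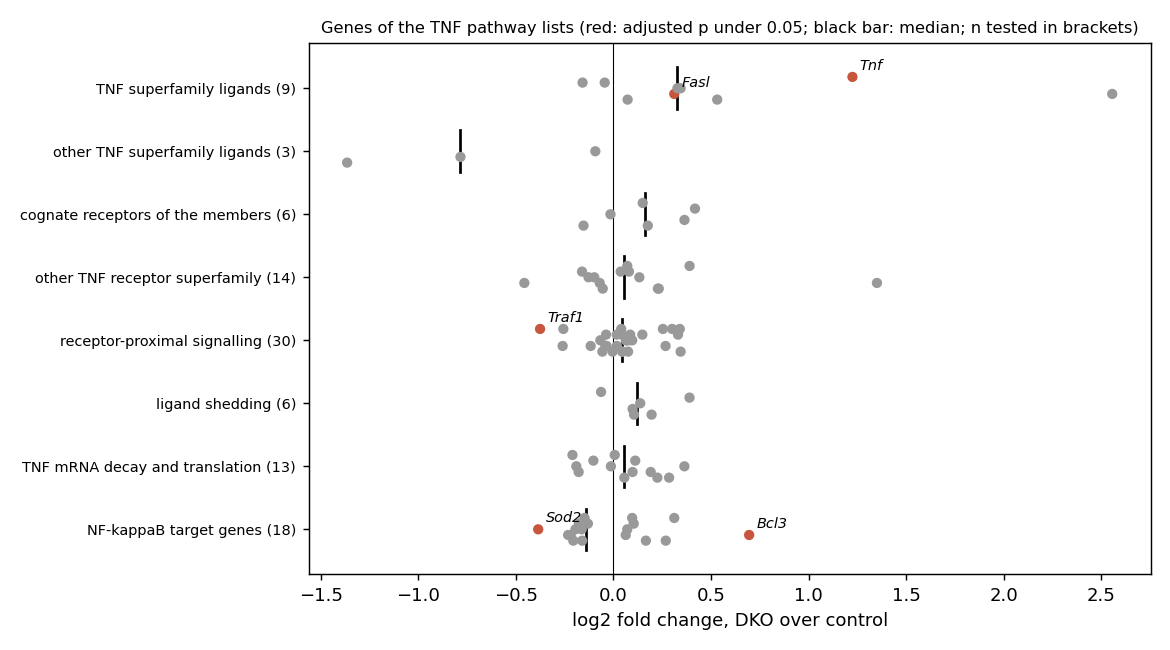
Log2 fold change, DKO over control (horizontal axis), of each tested gene in the ligand list and 7 pathway lists (rows, number tested in brackets), with the median of each list as a black bar. Red points passed an adjusted p of 0.05: Tnf, Fasl and Bcl3 on the higher side, Traf1 and Sod2 on the lower side.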

How the data were processed

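Counts without regard to strand were taken for 9 libraries of polyA RNA (SMART-Seq cDNA and Nextera Flex libraries, as the labels' protocols state). The deposited counts are whole numbers per gene, in STAR's layout and not normalised. Trim Galore 0.6.0, STAR 2.7.8a and mm10 are named in the submitters' processing notes, and the annotation is not given in the sources used here. In this layout, reads that map to several places or to overlapping genes are left out. STAR's summary lines, which hold no gene, entered neither totals nor tests. They took 10.3 to 16.7% (unmapped), 5.80 to 6.79% (multimapping), 4.01 to 5.20% (no feature) and 4.97 to 5.31% (ambiguous) of the reads. The strand columns were of equal size (49.9 to 50.1% in the first). Of 55471 identifiers, 55230 matched GENCODE M21 (GRCm38) without the version. No library pair of a group was alike within sampling noise.

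EdgeR 4.0.16 in R 4.3.3 was used (quasi-likelihood test, robust, TMM factors 0.987 to 1.03, filterByExpr with a minimum count of 10 and total of 15), with Benjamini-Hochberg adjustment over 14918 genes at 0.05. SEs were taken as the log2 fold change over the square root of F. CPM used TMM-scaled totals, and log2 CPM a prior count of 2. Intervals are 95%. Counts carry no molecular identifiers, so depth-based limits cover counting error only. Alternatives were DESeq2 1.42.0 (size factors and the Wald test), limma-voom with quality weights (limma 3.58.1), other count filters, the sum of the strand columns, a replicate block and leaving out each library. Summed marker lists and Tnf ratios used exact permutation tests (scipy 1.17.1). The fits were tested on simulated data.

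Members and lists were chosen with earlier results of these data known. Named genes were all members, their receptors, list genes past the threshold (otherwise the 2 with the smallest p), the 5 genes nearest in profile to each called member, genes near a called member, and the targeted genes. Of the genes near Tnf, the text names a part.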

Additional observations from a re-analysis of the deposited data

Results flagged for a closer look

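In 36 groups of CPM values (members, their receptors and the targeted genes), 2 held a library far from the rest of its group by Dixon's test at the 95% level, where chance gives about 5% of groups. Ltb was at 414 CPM in DKO replicate 5, below the 496.7 to 525.1 CPM of the other 4 DKO libraries. Tnfrsf10b was at 0.883 CPM in DKO replicate 3, above the 0.305 to 0.444 CPM of the other 4 DKO libraries.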

How the results depend on the processing

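Tnf kept its direction under all 16 alternatives and its call under 15, with a log2 fold change of 1.11 to 1.36. The exception was the replicate block (log2 fold change 1.13, adjusted p 0.0676). Fasl kept its direction under all 16 and its call under 6. It lost it with no low-count filter (adjusted p 0.0813), with the block (0.302) and without 8 of the 9 single libraries. The number of ligand genes called was 2 as reported, 3 with the DESeq2 Wald test, 3 with limma-voom, 1 with no low-count filter, 0 with the block (5 at an unadjusted p under 0.05), and 1 to 2 without single libraries. The number of genes called was 422, and 1059 with the DESeq2 Wald test, 996 with limma-voom, 67 with the block and 179 to 749 without single libraries. Of the pathway list genes, 3 were called, 8 with the DESeq2 Wald test, 7 with limma-voom, 0 with the block (13 at an unadjusted p under 0.05) and 0 to 9 without single libraries. Tnfsf8 turned positive with the block (0.10) and without control replicate 2 (0.01), control replicate 4 (0.12) or DKO replicate 5 (0.04), ranging from -0.27 to 0.12 without single libraries, and Tnfsf10 turned negative without control replicate 1 (-0.11 to 0.28 without single libraries). The cause of these changes was not tested. Fits without a library have fewer samples, and the number of genes called was 749 without control replicate 1 and 179 to 342 without each of the others. Same-numbered libraries did not deviate together (correlations -0.117 to 0.0124 over 4 pairs, and 0 of 4 control libraries matched their own number best), so the replicate block is not a pairing the design gives. Depth limits Tnfsf11 most, with 0 counts in 2 control libraries.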
